A study of Arabidopsis thaliana with 23 samples.

Results

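The salt response of miRNAs in the Arabidopsis mutant sos2-2 was described from 6 small RNA libraries of the 23 libraries in the series. They comprised 3 libraries of sos2-2 in 100 mM NaCl and 3 of sos2-2 on MS, the standard plant nutrient medium. All 428 listed mature miRNAs were included, with 5p and 3p strands kept apart, and none was chosen for its response. The seedlings were 10 days old after 2 days in the cold and growth at 22 °C on MS medium, and the NaCl group was then kept for 12 hours in liquid MS with salt. Whether the MS group also went into liquid is not given in the labels, so salt and the move cannot be told apart. The wild type, called gl1 in the series' design text, gave 3 small RNA libraries in each medium and is used for comparison. Whole seedlings were sampled, so a change in 1 organ and a change in the proportions of organs cannot be told apart. Nothing in the labels makes the replicates separate cultures, so p-values cover the spread among these libraries only, and that spread may be technical.

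A plant miRNA is cut as a short duplex from the stem of a hairpin transcript by DCL1, a process that also needs the zinc-finger protein SERRATE. A strand of the duplex, here called the guide, is loaded into an ARGONAUTE protein and pairs with target mRNAs along almost its whole length, which leads to their cleavage or to less translation. The partner strand of the duplex, also called the star strand, is usually degraded. SOS2 encodes a protein kinase of the salt overly sensitive pathway, which activates the sodium exporter SOS1. Several conserved miRNA families follow nutrient supply: miR395 rises under sulfate shortage, miR399 and miR827 under phosphate shortage and miR398 under copper shortage.

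By test 11 names differed between NaCl and MS in sos2-2, and their mature sequences are shown because every call below refers to them. They are RefSeq's for the TAIR10.1 assembly, written 5′ to 3′, with bases 2 to 8, the seed, in capitals.
miR395c: cUGAAGUGuuuggggggacuc
miR395f: cUGAAGUGuuuggggggacuc
miR395d: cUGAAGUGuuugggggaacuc
miR169b-3p: gGCAAGUUguccuucggcuaca
miR3434-5p: aCUUGGCUgauucuauuauu
miR824-3p: cCUUCUCAucgauggucuaga
miR398b-5p: aGGGUUGAuaugagaacacac
miR398c-5p: aGGGUUGAuaugagaacacac
miR156d-3p: gCUCACUCucuuuuugucauaac
miR164c-3p: cACGUGUUcuacuacuccaac
miR5633: uAUGAUCAucagaaaacagug
The 11 names held 9 distinct sequences and 8 distinct seeds. miR395c and miR395f are identical, miR395d differs from them by a base and shares their seed, and miR398b-5p and miR398c-5p are identical. Reads of an identical sequence cannot be assigned to a locus, so names of this kind are not separate observations.

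The other strands of the same precursors are shown next because the results compare strands. The miR398a duplex is included because its strands moved unlike those of miR398b and miR398c.
miR824-5p: uAGACCAUuugugagaaggga
miR398b-3p and miR398c-3p: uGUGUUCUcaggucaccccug
miR398a-3p: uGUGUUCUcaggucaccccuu
miR398a-5p: aAGGAGUGgcaugugaacaca
miR156d-5p: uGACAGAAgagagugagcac
miR164c-5p: uGGAGAAGcagggcacgugcg
miR169b-5p: cAGCCAAGgaugacuugccgg
The seed of every miR398 3p strand is the same, whereas the 5p strand of miR398a has another seed than that of miR398b and miR398c.

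The TAIR10.1 annotation places the called names at the following positions. MIR395a, MIR395b and MIR395c lie within 3964 bases of chromosome 1, the mature sequences running from 9363206 to 9367169. MIR395d, MIR395e and MIR395f lie within 3971 bases further along the chromosome, from 26269989 to 26273959. The 5p strands of MIR398b (chromosome 5, 4691033 to 4691053, plus strand) and MIR398c (4694705 to 4694725, plus strand) lie within 3693 bases. miR824-3p maps to chromosome 4, 12625721 to 12625741 on the plus strand, on the 3p side of MIR824. miR169b-3p maps to chromosome 5, 8527592 to 8527613 on the plus strand. On the same chromosome lie miR164c-3p (9852747 to 9852767, plus strand), miR156d-3p (3456643 to 3456665, minus strand) and miR3434-5p (7583305 to 7583324, minus strand). miR5633 maps to chromosome 3, 19544785 to 19544805 on the plus strand.

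The 6 libraries held 17361876 to 18821689 reads by the step between their values, and 1 RPM (1 read in 1000000 reads of the library) stood for 17.4 to 18.8 reads. The listed miRNAs made up 91917 to 109383 RPM of each library, and of the 428 names 293 had a mean of at least 1 RPM over the 12 small RNA libraries and were tested. Of the 135 names not tested, 117 were under 1 RPM in all 6 libraries, and 16 of these 117 were at 0 in all 6. In the mRNA libraries of the same groups SOS2 lay at 0.818 to 1.36 TPM in sos2-2 and 0.880 to 1.25 TPM in wild type, so its level did not check the genotype label. All 5 shoot markers and 5 of the 6 root markers were above 1 TPM in each sos2-2 mRNA library, so both organs named by the whole-seedling label were represented. Summed shoot markers lay at 4886 to 5484 TPM on MS and 4682 to 7788 TPM in NaCl, and summed root markers at 614 to 628 and 554 to 760 TPM, with 1 root marker called. Their part in the miRNA results was not tested.

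Few miRNAs differed between NaCl and MS in sos2-2. Higher in NaCl were miR169b-3p, miR3434-5p and 3 names of the sulfate family miR395. Lower were miR824-3p, miR156d-3p, miR164c-3p, miR398b-5p, miR398c-5p and miR5633. The log2 changes of these names lay between −0.88 and 0.86. Of the 293 tested miRNAs, 11 (3.75%) passed a limma test at an adjusted p (Benjamini-Hochberg) below 0.05, 5 of them higher (1.71%) and 6 lower (2.05%), while 54 had an unadjusted p under 0.05. The median log2 change over all 293 was −0.04, with 127 positive and 166 negative values. In 26 miRNAs (8.87%) all NaCl libraries lay above all MS libraries, and in 43 (14.7%) all lay below. All 11 called names were among these. Changes are NaCl minus MS on the log2(RPM + 1) scale, which understates changes of low miRNAs.

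The number of calls depended on single libraries and on the scaling more than the directions did. It was 2 without replicate 3 of sos2-2 in NaCl, 6 without replicate 3 of sos2-2 on MS, and 7 without replicate 2 of sos2-2 in NaCl or replicate 3 of wild type in NaCl. It was 22 without replicate 1 of sos2-2 on MS, 27 without replicate 2 of wild type on MS and 32 without replicate 1 of wild type on MS. Wild-type libraries bear on the count because all groups share an estimate of the spread. With each library centred on its median it was 37, 22 higher and 15 lower, and edgeR on recovered reads called 46, 24 higher and 22 lower. Both of these held all 11 names. miR824-3p and miR169b-3p kept their calls without each of the 12 libraries in turn, and every other call below was lost without replicate 3 of sos2-2 in NaCl.

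**Figure D1:**
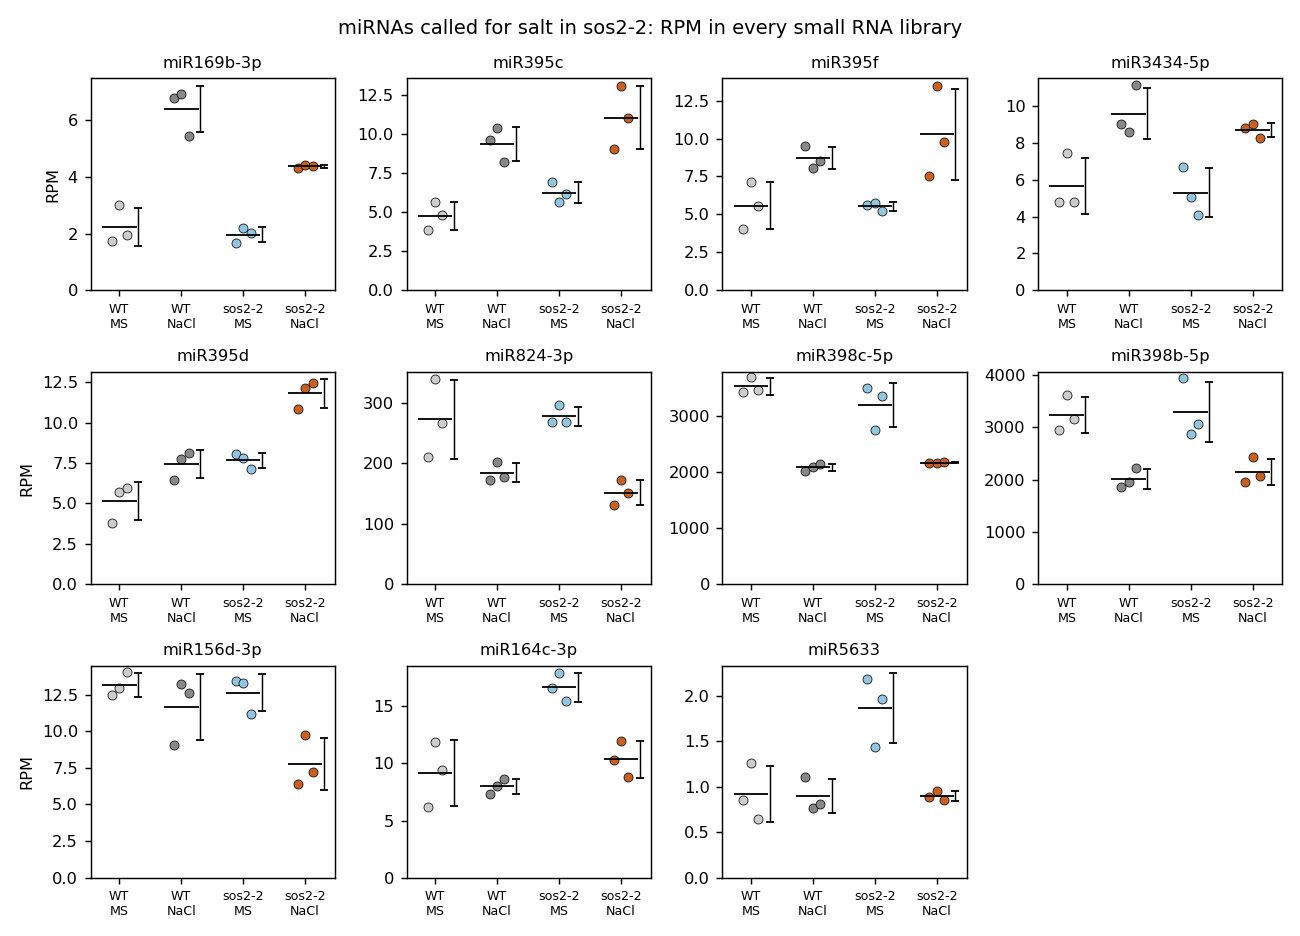
RPM of the 11 called miRNAs in each of the 12 small RNA libraries (vertical axis, linear from 0), by genotype and medium. Points are libraries, horizontal lines are means and the bars beside them are ± 1 SD (n = 3); in every panel the NaCl and MS points of sos2-2 do not overlap.

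**Figure D2:**
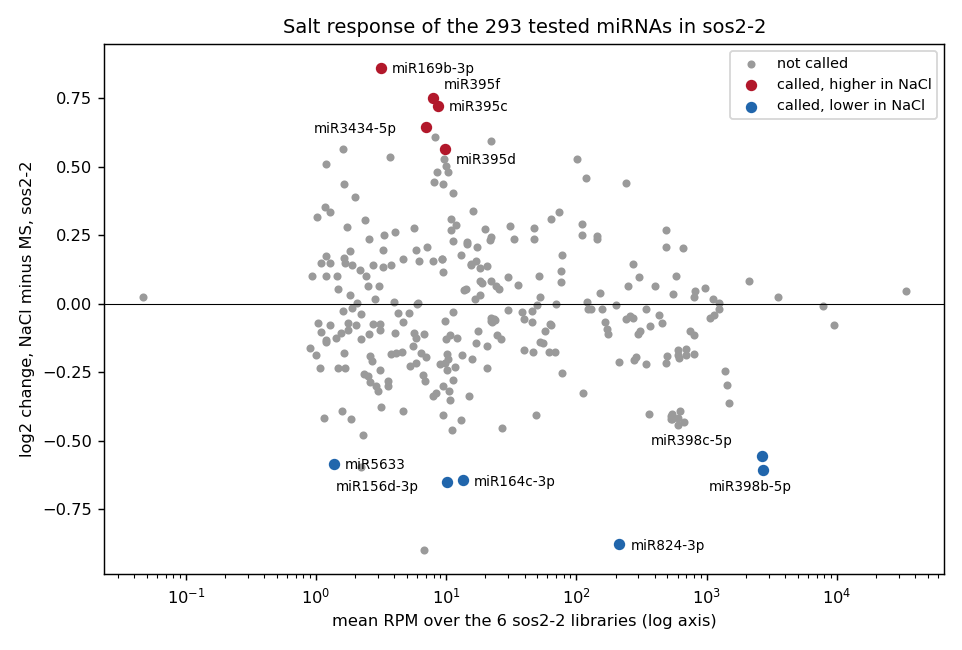
Log2 change for salt in sos2-2 (vertical axis) against the mean RPM over the 6 sos2-2 libraries (horizontal, log axis) for the 293 tested miRNAs. The 5 called higher lie near 3 to 10 RPM, whereas the 6 called lower range from miR5633 near 1 RPM to the miR398 5p strands at the right.

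The miR395 family rose, with a log2 change of 0.66 for the sum of its 6 names (SE 0.14, limma adjusted p = 0.00799). Its guides target the ATP sulfurylase genes APS1, APS3 and APS4 and the sulfate transporter gene SULTR2;1. miR395c was at 6.93, 5.64 and 6.12 RPM in the MS libraries and 9.04, 13.1 and 11 RPM in NaCl (log2 change 0.72, SE 0.16, limma adjusted p = 0.0101). Replicate 2 in NaCl was the highest and no library of the groups overlapped. miR395f was at 5.65, 5.76 and 5.21 RPM on MS and 7.54, 13.5 and 9.80 RPM in NaCl (0.75, SE 0.18, limma adjusted p = 0.0203), again with replicate 2 highest. miR395d was at 8.05, 7.78 and 7.13 RPM on MS and at 10.8, 12.1 and 12.5 RPM in NaCl (0.56, SE 0.16, limma adjusted p = 0.0381), with a narrow spread in both groups.

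Without replicate 2 of sos2-2 in NaCl miR395c had an adjusted p of 0.0529 in limma, miR395f of 0.0757 and miR395d of 0.0713. Without replicate 3 of that group the values were 0.0667, 0.0759 and 0.164. miR395f also lost its call without replicate 3 of sos2-2 on MS (limma adjusted p = 0.0994), and miR395d without that library (0.137), replicate 2 of sos2-2 on MS (0.0515) or replicate 3 of wild type in NaCl (0.0553).

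The 3 family members that were not called moved the same way. miR395b had a log2 change of 0.61 (limma adjusted p = 0.0505), miR395a of 0.53 (0.0512) and miR395e of 0.44 (0.0622). In all 6 names every NaCl library lay above every MS library, against 8.87% of all tested names. The 6 names hold 2 sequences, which differ by A17G counted from the 5′ end of miR395a: miR395a, miR395d and miR395e share the first, and miR395b, miR395c and miR395f the second. Averaged over its names the first had a log2 change of 0.51 (SE 0.14, limma adjusted p = 0.0449) and the second 0.69 (SE 0.17, 0.0345). Each chromosomal cluster encodes both sequences.

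The best ungapped match of miR395a in the RefSeq mRNAs of its targets is shown because this was the only guide family with a call. Sites are 5′ to 3′ and capitals mark bases that form Watson-Crick pairs with miR395a.
APS1 and APS3: GAGUUCCuCCAAACuCUUCAu
APS4: GAGUUCCuCCAAACACUUCAu
SULTR2;1: aAGUUCuCCCAAACACUUCAa
All lie in coding sequence, at chromosome 3, 8113164 to 8113184 (APS1, plus strand), chromosome 4, 8414958 to 8414978 (APS3, minus strand), chromosome 5, 17591121 to 17591141 (APS4, minus strand) and chromosome 5, 3193268 to 3193288 (SULTR2;1, plus strand). Of the 21 positions 3 are not Watson-Crick pairs in APS1, APS3 and SULTR2;1 and 2 in APS4, with 1 of them a G:U pair in each. With the miR395b sequence each site has 1 more G:U pair. A match of this kind is a description of the letters, not a measurement of cleavage.

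The target mRNAs of miR395 were not lower in NaCl by test. Over all genes, 937 of 16564 tested mRNAs (5.66%) were called higher for salt in sos2-2 and 155 (0.936%) lower, and the median log2 change was 0.16, to which the values here compare. Without a library of sos2-2 the number called was 456 (replicate 2 on MS), 656 (replicate 1 on MS) or 649 (replicate 3 in NaCl) in place of 1092. SULTR2;1 was at 4.75 and 5.46 TPM in the 2 MS libraries and at 8.59, 7.75 and 9.65 TPM in NaCl (log2 change 0.66, SE 0.21, limma adjusted p = 0.0675). APS1, whose product activates sulfate, was at 34.3 and 31.9 TPM on MS and at 44.1, 48.1 and 46.6 TPM in NaCl (0.47, SE 0.27, limma adjusted p = 0.374). For both genes the 3 NaCl libraries lay above the 2 MS libraries. The share of all mRNAs with this order is not given here, and 11843 of the 16564 had positive changes. APS4 had a log2 change of 0.25 and APS3 of 0.09, with overlapping groups, and after median centring APS3 was at −0.11.

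Among the phosphate families miR399, miR827 and miR2111 no name was called, and all 8 tested of 12 listed had positive values, with a median of 0.36 against −0.04 for all miRNAs. miR399 targets PHO2, a gene for an enzyme that removes phosphate transporters, and miR827 targets NLA, which acts with it. miR827 was at 76.8, 89.2 and 83.5 RPM on MS and at 114, 126 and 121 RPM in NaCl (log2 change 0.53, SE 0.15, limma adjusted p = 0.0505). The groups did not overlap, as in 4 of the 8 names, against 8.87% of all names with NaCl above MS. In wild type miR827 had a change of 0.09 and the median of the list was 0.04, and the difference of miR827 between genotypes had an interaction estimate of 0.43 (SE 0.22, limma adjusted p = 0.583). After median centring 3 of the 8 were called higher, against 22 of all 293 tested names.

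miR169b-3p, the partner strand of a miR169 precursor, rose by the largest amount of all called names. It was at 1.68, 2.19 and 2.02 RPM on MS and at 4.32, 4.41 and 4.37 RPM in NaCl (log2 change 0.86, SE 0.16, limma adjusted p = 0.00253). The 3 NaCl libraries lay close together and all above the MS libraries. Its guide, miR169b-5p, which targets mRNAs of NF-YA transcription factors, was at 1.06, 1.32 and 1.33 RPM on MS and 1.83, 2.23 and 2.02 RPM in NaCl (0.44, SE 0.18, limma adjusted p = 0.160). Only 6 of the 18 listed miR169 names reached the level tested. All 6 values were positive, with a median of 0.45 in sos2-2 and 0.79 in wild type. In sos2-2 miR169a-5p (0.00765) and miR169a-3p (0.0650) lay close to no change. miR169g-3p was at 12.3, 22.8 and 18.3 RPM on MS and 23.7, 29.0 and 27.4 RPM in NaCl (0.59, SE 0.22, limma adjusted p = 0.117), without overlap. Of the NF-YA genes, NF-YA1, NF-YA3 and NF-YA8 were tested and had log2 changes of 0.13, −0.06 and −0.03, none called, and the direction of NF-YA1 turned to −0.067 after median centring.

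The copper families miR398, miR408, miR397 and miR857 gave 2 called names of 11, both lower, with a list median of −0.30. Over all tested names 2.05% were called lower. The 2 names are 1 sequence, and the 11 tested names hold 9 sequences. miR398 guides target the copper/zinc superoxide dismutase genes CSD1 and CSD2 and their chaperone CCS, and the calls were in partner strands. miR398b-5p was at 3951, 2878 and 3060 RPM on MS and at 1962, 2435 and 2062 RPM in NaCl (log2 change −0.61, SE 0.13, limma adjusted p = 0.0101). miR398c-5p, of the same sequence, was at 3485, 2740 and 3353 RPM on MS and 2150, 2162 and 2174 RPM in NaCl (−0.55, SE 0.11, limma adjusted p = 0.00709). In both, all NaCl libraries lay below all MS libraries, and without replicate 3 of sos2-2 in NaCl the limma adjusted p was 0.0759 and 0.0588.

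The guide strands of the same duplexes, which share a sequence, lay lower on average without a call. miR398b-3p was at 1968, 1497 and 1498 RPM on MS and at 1023, 1742 and 1163 RPM in NaCl (log2 change −0.36, SE 0.16, limma adjusted p = 0.192). miR398c-3p had a change of −0.30 (SE 0.13, 0.180). Replicate 2 in NaCl lay within the MS range for both. miR398a-5p, chosen after its values were seen, went the other way: 10.5, 6.16 and 7.82 RPM on MS and 12.1, 11.3 and 11.8 RPM in NaCl (0.50, SE 0.17, limma adjusted p = 0.0903), without overlap. CSD1 was at 22.5 and 12.9 TPM on MS and 13.8, 21.9 and 22.3 TPM in NaCl (0.14, SE 0.31, limma adjusted p = 0.844), so the groups overlapped. CSD2 (−0.39) and CCS (−0.13) were not called either.

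On the log2(RPM + 1) scale miR824-3p fell by the most of all called names. In edgeR the low miRNA miR5633 fell by more, with a log2 change of −1.01 against −0.84 for miR824-3p. miR824-3p was at 268, 296 and 268 RPM on MS and at 130, 172 and 151 RPM in NaCl (log2 change −0.88, SE 0.15, limma adjusted p = 0.00207), every NaCl library lying well below the MS libraries. The guide miR824-5p, which targets the MADS-box gene AGL16, was at 53.0, 55.4 and 60.3 RPM on MS and 37.6, 49.1 and 40.5 RPM in NaCl (−0.41, SE 0.15, limma adjusted p = 0.110), also without overlap. In sos2-2 the partner was thus more abundant than the guide, with a mean of 277 ± 16.1 RPM on MS (SD, n = 3), both strands being 21 bases long. AGL16 was at 12.1 and 5.75 TPM on MS and 8.12, 5.46 and 9.93 TPM in NaCl (−0.12, SE 0.28, limma adjusted p = 0.848), and the groups overlapped.

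The conserved families that act on developmental regulators, such as miR156, miR164 and miR172, gave 2 called names of 79, both partner strands and both lower, a share near the 2.05% of all tested names called lower. Their median was −0.08 and 59 of the 79 values were negative. miR156d-3p was at 13.4, 13.3 and 11.2 RPM on MS and at 6.38, 9.72 and 7.19 RPM in NaCl (log2 change −0.65, SE 0.16, limma adjusted p = 0.0232). miR164c-3p was at 16.6, 17.9 and 15.4 RPM on MS and at 10.3, 12.0 and 8.79 RPM in NaCl (−0.64, SE 0.17, limma adjusted p = 0.0381). Neither overlapped between the groups. miR156d-3p lost its call without replicate 1 (limma adjusted p = 0.0897) or replicate 3 (0.148) of sos2-2 in NaCl, and miR164c-3p without any 1 of 5 libraries, 4 of them of sos2-2 (up to 0.188). miR164c-5p, the guide that targets NAC genes such as NAC1 and CUC2, had a change of −0.13 (SE 0.19, limma adjusted p = 0.734). Of the miR164 targets NAC1 was at 11.4 and 7.12 TPM on MS and 8.14, 7.60 and 9.15 TPM in NaCl, and ORE1, a regulator of leaf senescence, was at 8.64 and 4.47 TPM and 8.49, 12.5 and 12.3 TPM. Neither was called, with log2 changes of −0.11 and 0.72 (limma adjusted p = 0.834 and 0.156).

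The miR156 family, which holds back the vegetative phase change by targeting SPL genes, had 15 tested names, and all 15 had negative values with a median of −0.42. In 11 of them every NaCl library lay below every MS library, as in 14.7% of all tested miRNAs, and 6 of the 11 names carry a single sequence. The guide miR156d-5p was at 733, 872 and 713 RPM on MS and at 543, 605 and 562 RPM in NaCl (log2 change −0.43, SE 0.15, limma adjusted p = 0.0787). The 6 names that share its sequence were listed at 574 to 733 RPM in replicate 1 on MS. miR156f-3p had the most negative value of all tested miRNAs, −0.90 (SE 0.28, limma adjusted p = 0.0635), at 5.09, 13.0 and 9.58 RPM on MS and 2.99, 5.21 and 4.58 RPM in NaCl, with overlap. The wild type had a family median of 0.03. For miR156d-5p the interaction estimate was −0.43 (SE 0.21, limma adjusted p = 0.583), against a median of −0.15 over all miRNAs. No miRNA was called for the interaction. Only miR156d-3p was called for salt in the main fit. After median centring 6 of the 15 were called lower, against 15 of all 293 tested names. In a fit of the 6 sos2-2 libraries alone 11 of the family's 15 were called lower. Among all tested names that fit called 7 guides, 8 partners and 1 name without an assigned strand lower.

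Among 15 tested target mRNAs of families with a called miRNA 1 was called, higher, a share near the 5.66% of all mRNAs called higher, so the count says nothing particular of the targets. It was SPL4, a miR156 target that promotes flowering. It was at 1.78 and 0.445 TPM on MS and at 5.24, 2.92 and 3.61 TPM in NaCl (log2 change 1.27, SE 0.25, limma adjusted p = 0.00352). All NaCl libraries lay above both MS libraries, an order whose share over all mRNAs is not given here. The MS libraries differed widely from each other. Without replicate 2 of sos2-2 on MS the change was 0.80 and the limma adjusted p = 0.176. SPL9 had a change of 0.30 (limma adjusted p = 0.432), and the other 4 listed SPL genes were under the level tested. The 15 tested targets were part of 24 listed.

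The remaining lists held few or no calls. miR162, miR168 and miR403, which target DCL1, AGO1 and AGO2 of the miRNA machinery itself, had 10 tested names, none called, and a median of −0.09. In this list the smallest p was that of miR168a-3p, at 230, 238 and 214 RPM on MS and 190, 204 and 195 RPM in NaCl (log2 change −0.21, limma adjusted p = 0.344), without overlap. The triggers of secondary siRNAs had 14 tested names, none called, and a median of 0.07, with miR390a-3p at 0.31 (limma adjusted p = 0.200).

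All other families together, most of them young, had 157 of 272 names tested, with 1 called in each direction and a median of −0.05. Over all tested names 1.71% were called higher and 2.05% lower. miR3434-5p was at 6.71, 5.07 and 4.10 RPM on MS and at 8.82, 9.03 and 8.26 RPM in NaCl (log2 change 0.64, SE 0.17, limma adjusted p = 0.0381). Its other strand, miR3434-3p, was at 0.277 to 0.903 RPM in the 6 libraries and was not tested. miR5633 was at 2.18, 1.44 and 1.97 RPM on MS and at 0.887, 0.956 and 0.852 RPM in NaCl (−0.58, SE 0.16, limma adjusted p = 0.0381). Groups did not overlap in either, but each call was lost without any 1 of 6 libraries (limma adjusted p up to 0.154 and 0.162). miR845b had a change of −0.60 that was not called (SE 0.26, 0.192), with 1.12, 5.41 and 2.39 RPM on MS and 0.887, 2.18 and 1.23 RPM in NaCl.

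**Figure D3:**
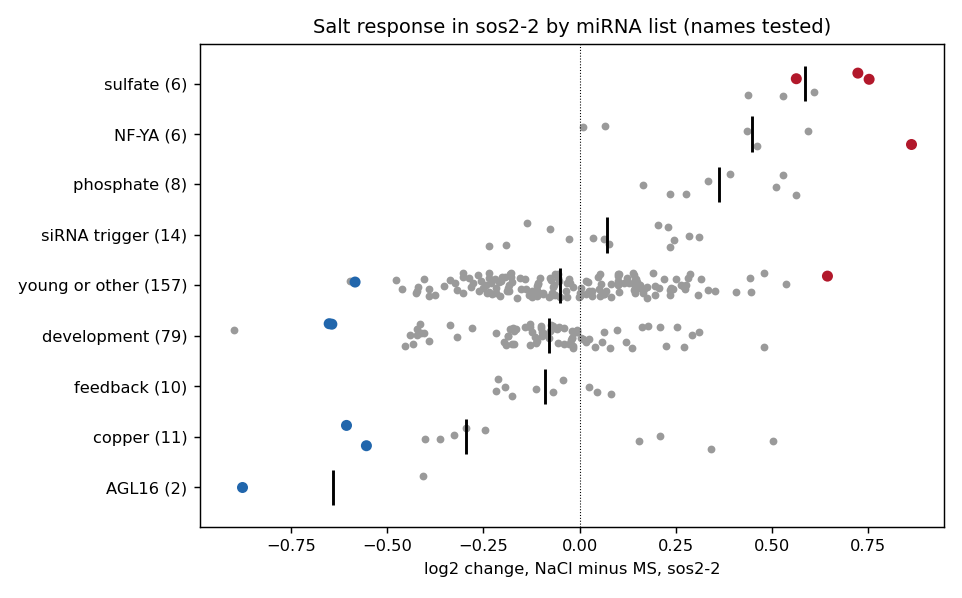
Log2 change for salt in sos2-2 (horizontal axis) of every tested miRNA by list, with the number tested in parentheses; coloured points are called (red higher, blue lower) and black bars are list medians. All 6 sulfate and all 8 phosphate values are positive, and the bar of the copper list is at −0.30.

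Of the 11 called names 6 were partner strands, and among these miR398b-5p and miR398c-5p are identical in sequence. Of 49 tested partner strands 6 were called, 1 higher and 5 lower. Of 85 tested guides 3 were called, all higher and all miR395. Over all tested names 3.75% were called, 1.71% higher and 2.05% lower. The other 159 names had no assigned strand and gave 1 call each way. The medians of the partner and guide strands were −0.02 and −0.06, close to the −0.04 of all miRNAs. Among the 6 called partner strands 4 were more abundant than their guide in the MS libraries, namely miR824-3p, miR169b-3p, miR398b-5p and miR398c-5p. The split by strand was not tested and followed the calls: after median centring 13 guides (9 higher, 4 lower) and 13 partners (6 higher, 7 lower) were called. In a fit of the 6 sos2-2 libraries alone 6 guides were called higher and 7 lower, and 2 partners higher and 8 lower.

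Whether the strands of a precursor moved by different amounts was tested as the change of log2((3p + 1)/(5p + 1)). Of 69 precursors with both strands at the level tested, 4 (5.80%) were called. For miR824 the log2 ratio was 2.32, 2.40 and 2.13 on MS and 1.77, 1.79 and 1.87 in NaCl (change −0.47, SE 0.09, limma adjusted p = 0.0186), so the 3p strand fell more than the 5p strand. For miR164c the ratio was −0.66, −0.63 and −0.75 on MS and −0.83, −1.36 and −1.38 in NaCl (−0.52, SE 0.13, limma adjusted p = 0.0313), so that the 3p strand, already the rarer, became rarer still. For miR398a the ratio was 3.71, 3.81 and 3.84 on MS and 2.59, 3.27 and 3.01 in NaCl (−0.83, SE 0.18, limma adjusted p = 0.0200), with the strands moving in opposite directions. For miR3932b, a young family, the ratio was −4.03, −4.29 and −4.34 on MS and −3.82, −3.56 and −3.68 in NaCl (0.54, SE 0.13, limma adjusted p = 0.0313), with the 5p strand at a change of 0.00. The miR3932b-3p sequence is shared with another listed name.

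These 4 calls rested on few libraries. None was left without replicate 2 of sos2-2 on MS, where the limma adjusted p of miR824 and miR398a was 0.0805 and that of miR164c and miR3932b 0.109. Leaving out replicate 3 of either sos2-2 group left 1 precursor called, miR824 in each case. Across the 69 precursors the changes of the 5p and 3p strands had a Pearson correlation of 0.547 and the same sign in 45. This is a description over precursors that share libraries and in part sequences.

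**Figure D4:**
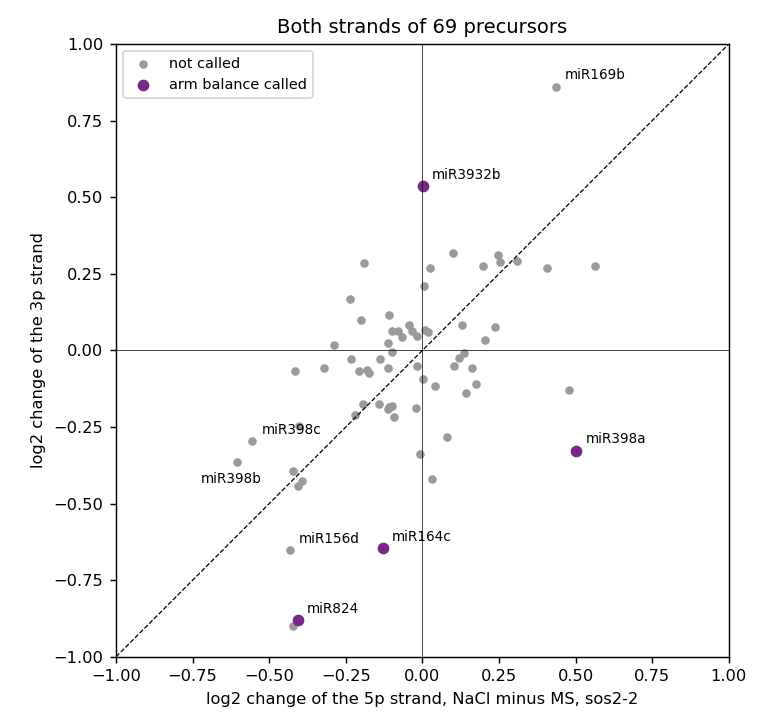
Log2 change for salt in sos2-2 of the 3p strand (vertical axis) against that of the 5p strand (horizontal) for 69 precursors; the dashed line marks equal change and purple points are the 4 precursors called for a change of arm balance. miR824, miR164c and miR398a lie below the line and miR3932b above it, and miR398b and miR398c lie close above it.

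The calls were also made with each sequence or family counted once. Of 234 distinct mature sequences 9 (3.85%) were called, 4 higher and 5 lower, and they were those of the 11 names. The shared sequence of miR398b-5p and miR398c-5p had a log2 change of −0.58 (limma adjusted p = 0.0085). With RPM summed over family members of the same strand name, 4 of 204 sums (1.96%) were called: miR824 3p, miR398 5p (−0.58, SE 0.12), miR395 and miR3434 5p (0.64, SE 0.17). The count was 1 without replicate 3 of sos2-2 in NaCl, 2 without replicate 3 of sos2-2 on MS, 10 without replicate 1 of sos2-2 on MS, and 14 after median centring.

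The most abundant miRNAs did not pass the test, apart from the miR398 5p strands. miR158a-3p, the highest, was at 32346 to 35792 RPM on MS and at 33897 to 36018 RPM in NaCl (log2 change 0.05, SE 0.12, limma adjusted p = 0.837). miR159a, which targets GAMYB-like MYB genes, had a change of −0.08 at 9154 to 10217 RPM on MS, and miR159b-3p of −0.01. miR396b-5p, which targets growth-regulating factor genes, had a change of 0.02, and miR403-3p of 0.08. Standard errors of these 5 lay between 0.12 and 0.13. All listed miRNAs summed to 103030 ± 5899 RPM on MS and 98739 ± 7211 RPM in NaCl (SD, n = 3 each, exact two-sided permutation p = 0.5, the smallest possible being 0.1).

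Properties of the sequence were not aligned with the direction in a simple way. Of the 5 called higher 3 begin with C, the miR395 names, and none begins with U, and of the 6 called lower 1 begins with U, although 164 of the 293 tested begin with U. The median change was −0.05 for names beginning with U, −0.12 for A, 0.05 for G and 0.10 for C. Most tested names were 21 bases long (212), with a median of −0.01, against −0.09 for 34 names of 20 bases and −0.11 for 36 names of 22 bases. Across the 293 names, which share libraries and in part sequences, the change had a Pearson correlation of 0.03 with GC content and of −0.14 with mean log2 RPM.

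Compared with wild type, the response had the same direction where either genotype gave a call. In wild type 13 of 293 names (4.44%) were called, and the median was 0.10. The count was 6 without replicate 1 on MS or replicate 1 in NaCl, 7 without replicate 3 on MS and 8 without replicate 3 in NaCl, all of wild type. Listed miRNAs summed to 83725 RPM in replicate 1 of wild type on MS and to 100019 to 110760 RPM in its other libraries. The part of this low sum in the wild-type median and in comparisons with wild type was not tested. 6 names were called in both genotypes: miR169b-3p, miR395c, miR3434-5p, miR824-3p, miR398b-5p and miR398c-5p. All 18 names called in either had the same sign in both. The groups share no library, but the tests of both genotypes share an estimate of the spread. Over all 293 names the changes had a Pearson correlation of 0.634, with 181 of the same sign.

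No miRNA passed the test of a difference between the responses of the genotypes. The interaction gave 0 calls of 293 (0%) in limma and 0 in edgeR, with 18 at an unadjusted p under 0.05 in limma, a lowest adjusted p of 0.541 and a median of −0.15. The 3 names called in sos2-2 with the smallest change in wild type were miR5633 (−0.01 in wild type), miR164c-3p (−0.14) and miR156d-3p (−0.18). Their interaction estimates were −0.57 (SE 0.23), −0.51 (SE 0.25) and −0.47 (SE 0.23), each at a limma adjusted p of 0.583. miR5633 was at 0.86, 1.26 and 0.65 RPM in wild type on MS, so its NaCl level in sos2-2 was near the wild-type level. miR398a-5p had an estimate of 0.87 (SE 0.25, limma adjusted p = 0.541), and without replicate 1 of sos2-2 on MS it was the only call, at 1.05 (SE 0.24, limma adjusted p = 0.0452). The arm balance interaction gave 0 calls of 69 in limma, with 3 at an unadjusted p under 0.05 and a lowest adjusted p of 0.0762.

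**Figure D5:**
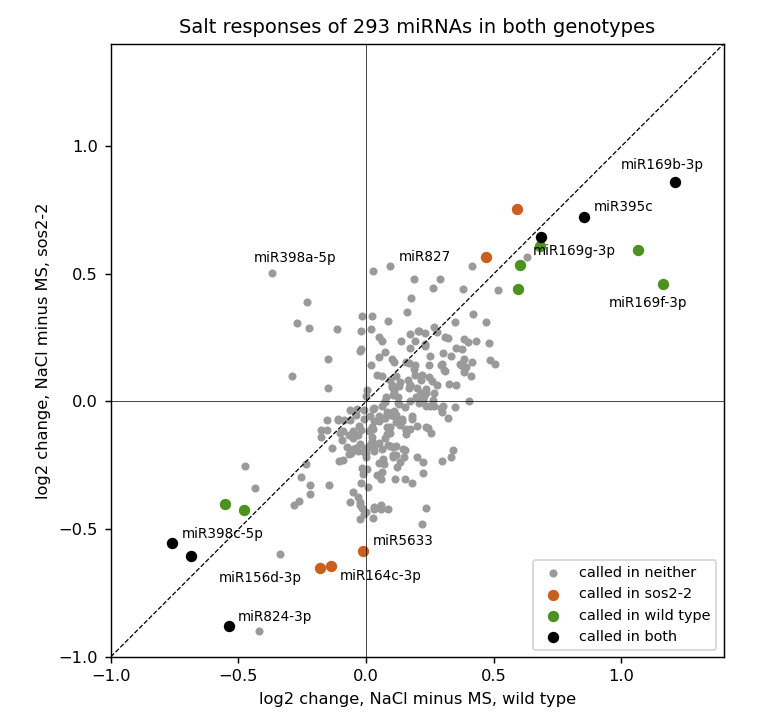
Log2 change for salt in sos2-2 (vertical axis) against that in wild type (horizontal) for 293 miRNAs, coloured by where a call was made; the dashed line marks equal change. The 6 names called in both genotypes lie at both ends, and miR5633, miR164c-3p and miR156d-3p lie low at wild-type values between −0.18 and −0.01.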

How the data were processed

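The authors deposited the small RNA table in RPM; cutadapt, featureCounts 1.6.4 and TAIR10 are named in the submitters' processing notes, and the aligner and the handling of reads with several matches are not given in the sources used here. Values were whole multiples of 1 read (2737 of 2737 values up to 200 reads within 0.1). mRNA values were TPM, deposited by the authors (kallisto 0.46.2 and sleuth 0.30.0, per the submitters' processing notes), summed to genes; TPM keeps no depth. Features with a mean of at least 1 RPM or TPM were tested on log2(value + 1) with limma 3.58.1 (trend, all groups of an assay, Benjamini-Hochberg, 0.05), for 12 small RNA and 11 mRNA libraries. edgeR 4.0.16 was run on reads of 11 libraries, leaving out replicate 2 of wild type in NaCl, which held too few low values for a stricter check of its step, although its 223 values up to 200 reads were whole. Scripts were tested on simulated data. Of 428 names 427 matched RefSeq (TAIR10.1), the source of sequences and coordinates. Lists and strand roles came from textbook knowledge; members and lists were chosen with earlier results of these data known. Named were called miRNAs with their other strands, the 6 most positive and 6 most negative, the 8 most abundant, the smallest p per list, any miRNA with reads in all 3 libraries of 1 group and 0 in the other, and targets of families with a call; the remaining miR395 names and the precursors called for arm balance were added after their values were seen. Alternatives covered pseudocount, filter, scaling, replicate block, edgeR, identical sequences, the groups fitted and each library left out.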

Additional observations from a re-analysis of the deposited data

How the results depend on the processing

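The directions of the 11 called miRNAs held under every alternative run, and the counts moved. The count of 11 was 3 without a filter, 4 at a mean of at least 10 RPM, 37 after median centring, 43 after rescaling to listed miRNA reads (26 higher, 17 lower), 46 with edgeR and 26 in a fit of the 6 sos2-2 libraries alone, and ranged from 2 to 32 without each library. Same-numbered sos2-2 libraries did not deviate together (r = −0.01, 0.05 and 0.05), so the numbers were not taken to pair them; with the replicate block 25 miRNAs were called (14 higher, 11 lower). The count for wild type of 13 was 6 without a filter, 8 at 10 RPM and 8 with 1 feature per sequence, and 6 to 17 without each library; the interaction count ranged from 0 to 1. Arm balance gave 2 at 10 RPM and 0 to 4 without each library. Family arms gave 8 at 10 RPM, 10 with the replicate block, 14 after centring and 1 to 10 without each library. The mRNA count of 1092 was 456 to 1048 without each library, and 764 higher against 697 lower after centring. miR159b-3p, near 0, turned to 0.0354 after centring, 0.0531 after rescaling and 0.0320 with edgeR. After centring NF-YA1 was at −0.0673, APS3 at −0.11 and CSD1 at −0.0572. Without each library in turn the ranges crossed 0 for miR159b-3p (−0.0970 to 0.0968), miR159a (−0.17 to 0.0210), miR396b-5p (−0.0382 to 0.0876), miR164c-5p (−0.31 to 0.0499), NF-YA1 (−0.0148 to 0.28), NF-YA3 (−0.21 to 0.0796), NF-YA8 (−0.15 to 0.0326), APS3 (−0.0122 to 0.20), CSD1 (−0.24 to 0.53), CCS (−0.32 to 0.0625), NAC1 (−0.42 to 0.19) and AGL16 (−0.60 to 0.35). The cause was not tested. Where a group kept 1 library, it was assumed to vary like the others. With 3 libraries a group, and about 18 reads per RPM, changes of miRNAs near 1 RPM are imprecise.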

Other observations

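miR8181 had reads in all 3 MS libraries of sos2-2 and in no NaCl library. Its values of 0.0559, 0.0576 and 0.0532 RPM stood for 1 read each, so a difference was not detectable at this depth.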
